A study of Mus musculus with 14 samples.

Results

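The genes described here are 9 genes of the PIWI-interacting RNA (piRNA) pathway and of transposon silencing: Piwil2, Piwil4, Mov10l1, Tdrd9, Tdrd1, Tdrd5, Mael, Asz1 and Morc1. They were taken as every probe set for which the annotation of the array gave exactly 1 of these symbols, in all 14 arrays. This gave 11 of 34958 single-symbol probe sets, and 9 of the 18194 genes tested. Piwil4 and Asz1 had 2 probe sets each, and each of the other genes had 1.

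Expression was measured on Affymetrix arrays in primordial germ cells of the mouse, from which sperm and eggs later form, between embryonic day (E) 9.5 and E13.5. The 14 arrays formed 7 groups of 2 arrays, labelled as biological replicates: unsexed cells of E9.5, E10.5 and E11.5, E12.5 male, E12.5 female, E13.5 male and E13.5 female. From E10.5 on, embryos came from BDF1 females mated with stella-EGFP transgenic males of a mixed B6/CBA background. The cells were released from genital ridges with trypsin and purified by flow cytometry on the fluorescence of the stella-EGFP reporter. The E9.5 cells were C57BL/6 and came from an earlier study, and no sort of them is described in the sources used here. RNA was isolated with the RNeasy Kit at E9.5 and with the RNeasy Micro Kit at all later stages. Each array started from 5 ng of total RNA, stated to equal 500 cells, amplified by PCR with 22 cycles at E9.5 and 12 cycles later. Each sample therefore pooled many cells, so that more cells with a transcript and more transcript per cell cannot be told apart. The labels do not say whether replicates came from separate litters, and p-values measure the spread between these arrays.

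Values are log2 signals normalized by the authors over the 14 arrays, with array medians between 4.66 and 4.80. A value below the table median of 4.72 is called dim. A log2 difference is a difference of signal of the same probe set, and levels of different genes are not set against each other. Of 10 germ cell markers, 9 were measured, and none was dim in both arrays of any group. Dppa3, the gene whose product is stella, had group means between 13.23 and 13.68. A gene passed the test with an adjusted p under 0.05 over all 18194 genes, and "rose" and "fell" are used of such genes. The E9.5 arrays differed from the others in strain, RNA kit and PCR cycles as well as in stage.

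The piRNA pathway protects the genome of animal germ cells from transposons. Piwi proteins carry small piRNAs that match transposon transcripts; in the cytoplasm they cut these transcripts, and in the nucleus of fetal male germ cells of the mouse they direct DNA methylation to transposons. Around the Piwi proteins stand RNA helicases, Tudor domain proteins that bind methylated arginines of Piwi proteins, and scaffolds of the germ granules that lie between mitochondria. Fetal germ cells pass through these stages while most of their DNA methylation is erased, and mouse males that lack one of these proteins typically fail in spermatogenesis.

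RefSeq promoters (build GRCm38.p6, from 250 bases before to 50 bases after the listed start) were at hand for 7 of the 9 genes. They were searched on both strands for CACGTG, an E-box with a central CG that factors of the MYC and MAX family bind, and for GCGGGA, the core of sites of E2F6-type factors; the last base of one can be the first of the other. The 4 member promoters that hold CACGTG are printed, with that of Tdrd5, which holds none and has the most CG dinucleotides of the 7, for contrast. Capitals mark CACGTG and GCGGGA, the second also as TCCCGC on the opposite strand. Each is the first promoter listed for its gene.
Mael (chr1:166238695-166238994, minus strand): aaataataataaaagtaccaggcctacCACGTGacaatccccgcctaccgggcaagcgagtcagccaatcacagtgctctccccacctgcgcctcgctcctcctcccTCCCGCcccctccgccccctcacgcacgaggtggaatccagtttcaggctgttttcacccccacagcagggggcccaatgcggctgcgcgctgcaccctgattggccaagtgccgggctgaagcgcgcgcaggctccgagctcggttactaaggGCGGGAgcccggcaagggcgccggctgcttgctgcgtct
Mov10l1 (chr15:88982744-88983043, plus strand): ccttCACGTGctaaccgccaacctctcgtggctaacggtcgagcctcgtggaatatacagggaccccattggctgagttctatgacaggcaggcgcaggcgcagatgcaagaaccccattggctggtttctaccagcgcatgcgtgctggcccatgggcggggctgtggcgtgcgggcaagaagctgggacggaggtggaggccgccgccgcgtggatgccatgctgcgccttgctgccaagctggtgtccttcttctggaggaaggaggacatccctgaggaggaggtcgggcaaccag
Tdrd9 (chr12:111971309-111971608, plus strand): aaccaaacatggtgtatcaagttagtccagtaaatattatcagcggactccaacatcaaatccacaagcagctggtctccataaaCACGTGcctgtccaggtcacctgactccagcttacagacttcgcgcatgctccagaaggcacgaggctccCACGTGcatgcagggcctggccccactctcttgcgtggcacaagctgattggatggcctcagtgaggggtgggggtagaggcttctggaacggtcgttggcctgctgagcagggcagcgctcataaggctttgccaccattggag
Tdrd1 (chr19:56825959-56826258, plus strand): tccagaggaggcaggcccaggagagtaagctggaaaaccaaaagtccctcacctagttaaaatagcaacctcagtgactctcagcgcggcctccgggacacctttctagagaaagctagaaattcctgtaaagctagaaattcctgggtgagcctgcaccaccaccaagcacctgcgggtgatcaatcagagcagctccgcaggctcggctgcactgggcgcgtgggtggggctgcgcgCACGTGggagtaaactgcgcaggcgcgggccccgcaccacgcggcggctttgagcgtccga
Tdrd5 (chr1:156303299-156303598, minus strand): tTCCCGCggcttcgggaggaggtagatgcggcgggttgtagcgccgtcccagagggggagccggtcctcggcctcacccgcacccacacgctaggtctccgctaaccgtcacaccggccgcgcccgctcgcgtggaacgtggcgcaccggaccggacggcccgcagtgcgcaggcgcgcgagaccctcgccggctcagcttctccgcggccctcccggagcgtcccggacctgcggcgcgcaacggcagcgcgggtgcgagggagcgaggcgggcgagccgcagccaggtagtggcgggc
CACGTG lay in at least 1 listed promoter of 4 of the 7 genes, which is 57.1% of them, against 8.09% of all 27025 genes with a listed promoter and 7.15% of all 32851 promoters. Tdrd9 held 2 copies in its 300 bases, and Mael, Mov10l1 and Tdrd1 held 1 each. No CACGTG lay in the windows of Asz1 (chr6:18109012-18109311, minus strand) or Piwil4 (chr9:14740623-14740922, minus strand). Among other piRNA pathway genes, 5 of 14 with a promoter held the motif (35.7%), and among other transposon silencing genes 3 of 21 (14.3%). GCGGGA lay in promoters of 2 of the 7 member genes (28.6%), Mael with 2 copies and Tdrd5 with 1, against 22.05% of all genes. It lay in 35.7% of the other piRNA pathway genes and 38.1% of the other transposon silencing genes. The first promoters held 24 CG dinucleotides in Mael, 20 in Mov10l1, 10 in Tdrd9 and 20 in Tdrd1. Tdrd5 held 48, Asz1 17 and Piwil4 11, against a median of 7 over all promoters. The median of the first promoters was 20 in the members, 22 in the other piRNA pathway genes and 28 in the other transposon silencing genes. CACGTG itself holds a CG, and the shares over all genes were not matched for the number of CG dinucleotides. These matches are descriptions of the sequence.

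The main comparison asked how the pathway differed between E13.5 and E10.5, over the days when the cells settle in the gonads. In E13.5 males, 7 of the 9 genes rose: Piwil4, Mael, Tdrd1, Mov10l1, Tdrd5, Tdrd9 and Asz1. In E13.5 females 7 rose as well, with Piwil2 in place of Tdrd5. Morc1 fell in both sexes. Over all genes, 12.7% passed in males (7.52% higher, 5.23% lower) and 17.9% in females (11.5% higher, 6.39% lower). The median log2 change of the 9 genes was 1.91 in males, against 0.07 over all genes, and 2.07 in females, against 0.08 over all genes. Both sexes were compared with the same E10.5 arrays, so these counts share their reference. With the compared arrays fitted alone, 5 members passed in males, against 3.12% of all genes, and 5 in females, against 5.44% of all genes; the calls lost are given with each gene.

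**Figure D1:**
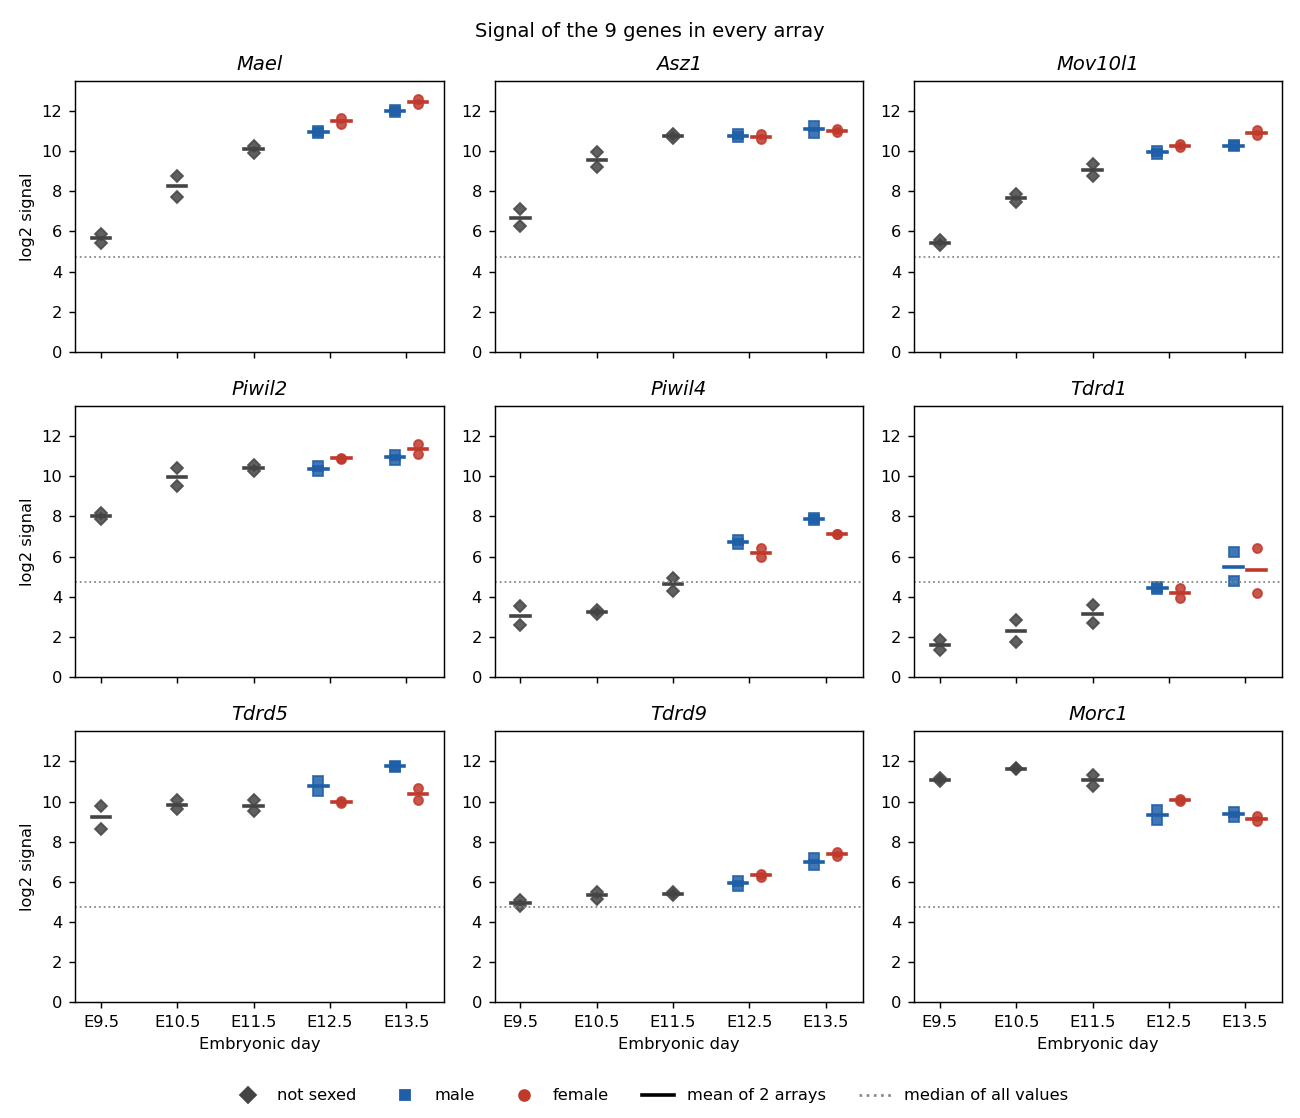
Log2 signal of the 9 genes in each of the 14 arrays, by group; each point is 1 array and each bar the mean of 2 arrays. Mael, Mov10l1 and Piwil4 stand lowest at E9.5 or E10.5 and highest at E13.5, and Morc1 runs the other way, with E13.5 means of 9.36 in males and 9.15 in females, against 11.64 at E10.5.

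Piwil2 encodes MILI, the cytoplasmic Piwi protein that cuts transposon transcripts. It read 7.87 and 8.19 at E9.5, 9.50 and 10.44 at E10.5 and 10.25 and 10.55 at E11.5. At E12.5 it read 10.27 and 10.50 in males and 10.89 and 10.90 in females, and at E13.5 11.05 and 10.84 in males and 11.62 and 11.10 in females. The 2 E9.5 arrays were the lowest of the 14, and both arrays of each E13.5 sex lay above both E10.5 arrays. Relative to E10.5, Piwil2 rose in E13.5 females by 1.39 (SE 0.29, adjusted p = 0.00704). In E13.5 males the change was 0.98 (SE 0.29, adjusted p = 0.0516), which did not pass. Without E13.5 female replicate 1 the female change was 1.13 and did not pass (adjusted p = 0.0731), nor did it with the compared arrays alone (adjusted p = 0.124). Without E10.5 replicate 2 the male change was 1.45 and passed (adjusted p = 0.00402). Orders of means, here and below, cover the groups from E10.5 on and leave out E9.5. For Piwil2 the groups ran from E10.5 through E12.5 males, E11.5, E12.5 females and E13.5 males up to E13.5 females. No neighbours in this order differed by the test.

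Piwil4 encodes MIWI2, the Piwi protein that enters the nucleus of fetal male germ cells of the mouse and acts there in transposon methylation. Its signal was 3.54 and 2.57 at E9.5, 3.36 and 3.15 at E10.5, and 4.27 and 4.95 at E11.5. At E12.5 males read 6.62 and 6.85 and females 5.99 and 6.41, and at E13.5 males read 7.84 and 7.94 and females 7.14 and 7.15. The gene was dim at E9.5 and E10.5 and in 1 of the E11.5 arrays, and above the table median in every later array. Relative to E10.5 it rose by 4.63 in E13.5 males (95% interval 4.02 to 5.25, adjusted p = 6.91e-06) and by 3.89 in E13.5 females (3.27 to 4.51, adjusted p = 2.04e-05). These are differences of signal from a dim level, and no detection calls were used to say whether the E10.5 signal lies above background. Among neighbours in the order of its means, E12.5 females differed from E11.5 (adjusted p = 0.0219), and no others did. The other probe set of Piwil4 had means of 2.53, 2.46 and 3.16 at E9.5, E10.5 and E11.5, 4.31 in E12.5 males, 3.35 in E12.5 females, and at E13.5 5.35 for males and 4.72 for females. This other probe set was dim in 11 of the 14 arrays. Tested with limma over all probe sets, it too was higher than at E10.5 in E13.5 males, by 2.90 (adjusted p = 0.000814). In E13.5 females it was higher by 2.26 (adjusted p = 0.00268).

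Mov10l1 encodes the RNA helicase that binds piRNA precursors and is needed to load both fetal Piwi proteins in the mouse. It read 5.55 and 5.33 at E9.5, 7.85 and 7.45 at E10.5, and 9.36 and 8.78 at E11.5. At E12.5 it read 9.88 and 10.02 in males and 10.19 and 10.35 in females. E13.5 males had 10.27 and 10.30 and E13.5 females 11.04 and 10.79. Every array from E11.5 on lay above every E10.5 array, and these above both E9.5 arrays. Relative to E10.5, Mov10l1 rose by 2.63 in E13.5 males (95% interval 2.13 to 3.14, adjusted p = 4.71e-05) and by 3.27 in E13.5 females (2.76 to 3.77, adjusted p = 1.81e-05), which is 6.21-fold and 9.61-fold in signal. From E10.5 on its means followed the stages in order, with females above males at E12.5 and E13.5. No neighbours in that order differed by the test, and the steps between stages are given below.

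Tdrd9 encodes a helicase with a Tudor domain that works with MIWI2. It read 5.09 and 4.78 at E9.5, 5.15 and 5.49 at E10.5 and 5.47 and 5.34 at E11.5, a narrow range. E12.5 males had 6.04 and 5.79 and E12.5 females 6.39 and 6.24. E13.5 males had 7.17 and 6.81 and E13.5 females 7.48 and 7.30, and both E13.5 groups lay above all other arrays. Relative to E10.5, Tdrd9 rose by 1.67 in E13.5 males (SE 0.24, adjusted p = 0.00114) and by 2.07 in E13.5 females (SE 0.24, adjusted p = 0.00026). In males the call was lost with the compared arrays alone (adjusted p = 0.066). From E10.5 on its means ran in stage order with females above males at each sexed stage, again with no neighbours that differed by the test.

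Tdrd1 encodes a Tudor scaffold of the germ granule that binds MILI. It was dim in 11 of the 14 arrays, with 1.33 and 1.83 at E9.5, 1.72 and 2.84 at E10.5 and 3.59 and 2.70 at E11.5. E12.5 males read 4.48 and 4.37 and E12.5 females 4.43 and 3.95. At E13.5 the replicates parted, with 6.21 and 4.80 in males and 6.44 and 4.18 in females. Both E13.5 groups still lay above both E10.5 arrays, and the change was 3.23 in males (95% interval 1.63 to 4.82, adjusted p = 0.0141) and 3.03 in females (1.43 to 4.63, adjusted p = 0.0143). These are the least precise of the 9 genes, with a standard error of 0.72, and they too start from a dim level. The male call was lost without E10.5 replicate 1 (change 2.67, adjusted p = 0.0604) or without E13.5 male replicate 1 (2.52, adjusted p = 0.12). The female call was lost without E10.5 replicate 1 (2.47, adjusted p = 0.0693) or without E13.5 female replicate 1 (1.90, adjusted p = 0.126). With the compared arrays alone neither passed (adjusted p = 0.0798 in males and 0.116 in females). No neighbours in the order of its means differed by the test.

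Tdrd5 encodes a Tudor and LOTUS domain protein of the germ granules that mouse males need to silence transposons. It read 8.64 and 9.80 at E9.5, 9.61 and 10.09 at E10.5, and 9.52 and 10.07 at E11.5. E12.5 males had 10.52 and 11.02 and E12.5 females 10.05 and 9.93. E13.5 males had 11.73 and 11.79, above every other array of the 14, and E13.5 females had 10.65 and 10.10. Relative to E10.5 it rose by 1.91 in E13.5 males (95% interval 1.31 to 2.51, adjusted p = 0.001). The change in E13.5 females was 0.53 (interval -0.07 to 1.12, adjusted p = 0.237) and did not pass. Its means ran from E11.5, E10.5 and E12.5 females through E13.5 females and E12.5 males up to E13.5 males, with no neighbours that differed by the test.

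Mael encodes maelstrom, a germ granule protein that mouse germ cells need for transposon silencing. It had 5.87 and 5.44 at E9.5, 7.74 and 8.75 at E10.5, and 9.91 and 10.27 at E11.5. At E12.5 it had 10.92 and 11 in males and 11.65 and 11.36 in females, and at E13.5 12.04 and 11.98 in males and 12.58 and 12.34 in females. Each stage lay wholly above the stage before it within each sex. Relative to E10.5, Mael rose by 3.77 in E13.5 males (95% interval 3.13 to 4.40, adjusted p = 2.74e-05), 13.6-fold in signal. In E13.5 females it rose by 4.22 (3.58 to 4.85, adjusted p = 1.62e-05), 18.6-fold, which was the largest change of a member in females. From E10.5 on, no neighbours in the order of its means differed by the test. The steps between stages, of which some passed, are given below.

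Asz1 encodes GASZ, a protein of the outer mitochondrial membrane that anchors the germ granule material between mitochondria. It read 7.10 and 6.28 at E9.5 and 9.20 and 9.96 at E10.5. From E11.5 it was nearly level, with 10.66 and 10.84 at E11.5. At E12.5 males had 10.85 and 10.69 and females 10.87 and 10.59, and at E13.5 males had 11.28 and 10.90 and females 11.11 and 10.94. Relative to E10.5, it rose by 1.51 in E13.5 males (SE 0.25, adjusted p = 0.00254) and by 1.45 in E13.5 females (SE 0.25, adjusted p = 0.00242). Between neighbours in its order from E10.5 on, E12.5 females differed from E10.5 (adjusted p = 0.0234) and no others did. The step from E9.5 is given below. The other probe set did not pass: relative to E10.5 it differed by 0.61 in E13.5 males (adjusted p = 0.657) and by 0.78 in E13.5 females (adjusted p = 0.525). With the mean of both probe sets, Asz1 did not pass in males (adjusted p = 0.112) or females (adjusted p = 0.0772), nor did it with the compared arrays alone (adjusted p = 0.098 in males and 0.0743 in females).

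That second Asz1 probe set read 9.88 and 8.13 in E13.5 males and 10.10 and 8.26 in the females, against 8.45 and 8.35 at E10.5. In each sex replicate 1 of E13.5 lay above, and replicate 2 below, every E12.5 array. Within E13.5, the replicate of each sex where it and Tdrd1 were lower also had the larger difference between the 3′ and 5′ control probe sets of Gapdh, a measure of how complete the copied RNA is. At E13.5 this difference was 1.57 and 3.16 in males and 1.23 and 3.09 in females, against 0.44 and 1.38 at E10.5. It was 2.53 in E11.5 replicate 2 and 1.18 in replicate 1. There the second Asz1 probe set read 7.87 in replicate 2 and 8.90 in replicate 1, and Tdrd1 2.70 and 3.59. The same difference for another control, Actb, was 3.29 and 2.94 in E13.5 males and 3.13 and 3.09 in E13.5 females. At E11.5 the Actb difference was 3.24 in replicate 1 and 2.90 in replicate 2. Replicate 2 thus had the smaller Actb difference in each of these groups, the reverse of Gapdh. At E9.5, where both probe sets had their lowest mean, the Gapdh difference was 1.20 and 0.21. At E10.5 the higher value of Tdrd1 came with the higher difference, and that of the second Asz1 probe set with the lower. The part of the Gapdh difference in the values of these probe sets was not tested. Without the 2 arrays above 3, an alternative chosen after seeing the data, 8 members passed in each sex at E13.5 against E10.5, against 6.13% of all genes in males and 11.1% in females. The change of Tdrd1 was then 3.93 in males and 4.16 in females. The same alternative ended the Tdrd5 call between the sexes and the E12.5 calls against E11.5, as given with those results.

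**Figure D2:**
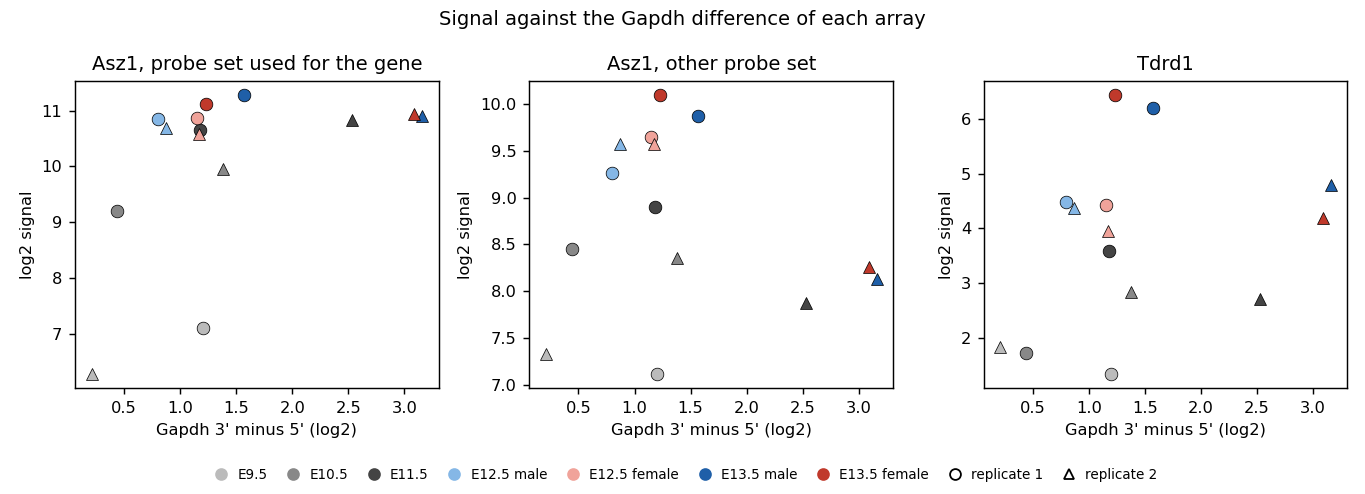
Log2 signal of Tdrd1 and of the 2 Asz1 probe sets against the difference between the 3′ and 5′ control probe sets of Gapdh (log2 units), 1 point per array, coloured by group and shaped by replicate. Replicate 2 of E13.5 males and of E13.5 females, at 3.16 and 3.09, lies to the right, with Tdrd1 at 4.80 and 4.18.

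Morc1 encodes a nuclear ATPase that mouse male germ cells need to repress transposons. It was high at first, with 11.04 and 11.15 at E9.5, 11.60 and 11.67 at E10.5 and 10.78 and 11.34 at E11.5. E12.5 males had 9.56 and 9.07 and E12.5 females 10.12 and 10.01. E13.5 males had 9.47 and 9.25 and E13.5 females 9.04 and 9.26, so that all arrays from E12.5 on lay below all earlier ones. Relative to E10.5, Morc1 fell by 2.28 in E13.5 males (SE 0.23, adjusted p = 0.000126) and by 2.49 in E13.5 females (SE 0.23, adjusted p = 7.73e-05), 4.84-fold and 5.60-fold in signal. No neighbours in the order of its means differed by the test.

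**Figure D3:**
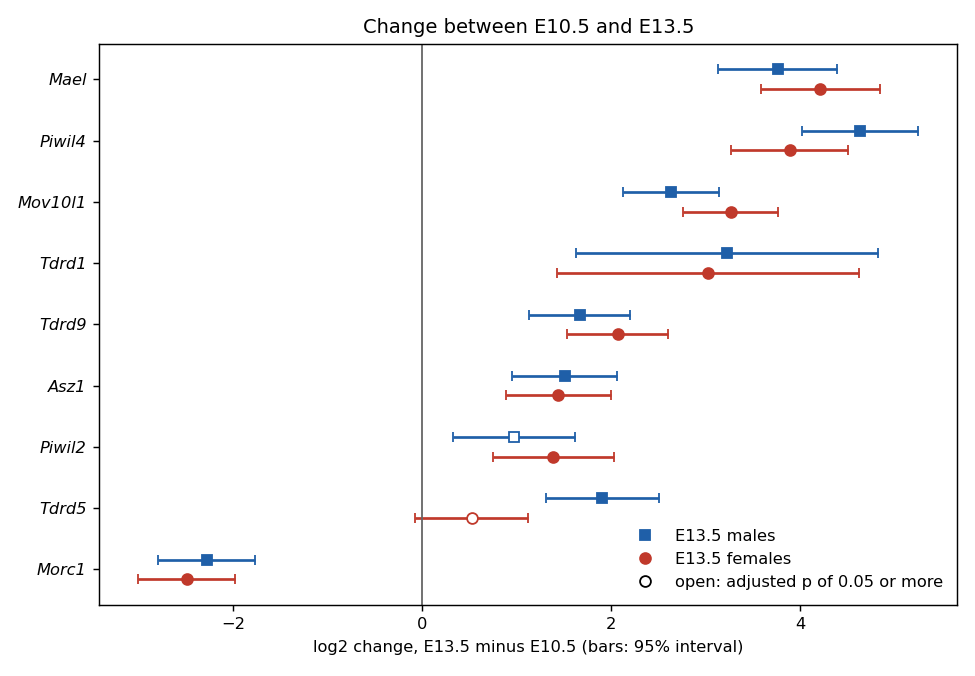
Log2 change of each gene at E13.5 relative to E10.5, in males and in females, with 95% intervals of the limma fit of 12 arrays. Morc1 is the member below 0, Tdrd1 has the widest interval, and Tdrd5 in females is the member whose interval reaches from -0.07 to 1.12.

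Between neighbouring stages fewer changes passed. At E10.5 against E9.5, Asz1 rose by 2.89 (SE 0.30, adjusted p = 0.00121), Mael by 2.59 (SE 0.29, adjusted p = 0.00192), Mov10l1 by 2.21 (SE 0.23, adjusted p = 0.00121) and Piwil2 by 1.94 (SE 0.29, adjusted p = 0.00906). These are 4 of the 9 genes, against 1.06% of all genes called (0.715% higher). Stage cannot be told apart from strain, RNA kit and PCR cycles in this comparison. With these 4 arrays fitted alone, 0 members passed, as did 0 of all genes (1129 at an unadjusted p under 0.05), and the Piwil2 call was lost without E9.5 replicate 1 (adjusted p = 0.0856). The summed signal of 9 blood markers lay between 2705 and 3453 at E10.5 and between 13196 and 24714 at E9.5, and 2 of them fell; their part in these changes was not tested.

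At E11.5 against E10.5, 0 members passed with limma, and 0.0769% of all genes did (14 of 18194, and 1287 at an unadjusted p under 0.05). Mael differed by 1.85 (SE 0.29, adjusted p = 0.0541) and Mov10l1 by 1.42 (SE 0.23, adjusted p = 0.0586). With median centring both passed (adjusted p = 0.0486 and 0.049), and 2 members also passed without E10.5 replicate 1 (Mael and Mov10l1) and without E10.5 replicate 2 (Mael and Asz1). Piwil4 differed by 1.36 (adjusted p = 0.136) and Asz1 by 1.17 (adjusted p = 0.157).

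At E12.5 the 2 sexes were compared with the same unsexed E11.5 arrays. In males, Piwil4 rose by 2.13 (SE 0.28, adjusted p = 0.0079) and Morc1 fell by 1.75 (SE 0.23, adjusted p = 0.00842), against 1.01% of all genes called. In females, Piwil4 rose by 1.59 (SE 0.28, adjusted p = 0.0219), Mov10l1 by 1.20 (SE 0.23, adjusted p = 0.0293) and Mael by 1.42 (SE 0.29, adjusted p = 0.0364), against 1.86% called (1.41% higher). The other Piwil4 probe set differed by 1.15 in males (adjusted p = 0.36) and by 0.19 in females (adjusted p = 0.915). Without E12.5 male replicate 2 neither male call passed (adjusted p = 0.123 for each), and without E11.5 replicate 2 Morc1 did not (adjusted p = 0.0863). Leaving out any of the 4 compared arrays left 0 or 1 of the female calls. Mael was also lost under quantile normalization (adjusted p = 0.0837) and with each probe set tested (adjusted p = 0.0553). Mael and Mov10l1 were lost with no intensity trend (adjusted p = 0.0954 and 0.0769) and with a Gapdh covariate (adjusted p = 0.0623 and 0.056), and Piwil4 in females with the mean of its probe sets (change 0.89, adjusted p = 0.147). Without the 2 E13.5 arrays with a Gapdh difference above 3, which leaves these changes themselves as they were, none of the 5 E12.5 calls passed (adjusted p between 0.051 and 0.114), and 0 passed with the compared arrays alone.

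Markers of other cells also changed in these steps. In E12.5 males, 1 of 10 rose in each of the male supporting (Ptgds, 2.13), female supporting (Rspo1, 2.93) and gut and mesonephros lists (Lhx1, 1.21). In E12.5 females, Rspo1 (2.93) and Msx1 (1.95) of the female supporting list rose, as did Cdx2 (2.52) and Foxa1 (2.23) of the gut and mesonephros list. Of 14 gonadal somatic markers Col3a1 fell by 1.64 in E12.5 females, while 7 of the 14 changes were positive, with a median of -0.01. The gonadal somatic sum lay between 388 and 461 in E12.5 females, against 430 to 450 at E11.5. The male supporting sum lay between 755 and 887 in E12.5 males, against 738 to 900 at E11.5. The female supporting sum lay between 633 and 799 in E12.5 males and between 919 and 1192 in the females, against 502 to 541 at E11.5. The gut and mesonephros sum lay between 4538 and 4948 in E12.5 males and between 3558 and 3865 in the females, against 3457 to 3532 at E11.5. Most of that sum was the signal of Epcam, with means of 11.72 in E12.5 males, 11.49 in the females and 11.36 at E11.5. Which cells the signals of these markers, Epcam among them, came from was not tested. The part of other cells in the changes was not tested.

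At E13.5 against E12.5, 0 members passed with limma in males, where 2.09% of all genes did, and 0 in females, where 1.87% did. Unadjusted p-values under 0.05 were found for 2574 genes in males and 2729 in females. Tdrd9 came nearest in both, with a change of 1.08 in males (SE 0.24, adjusted p = 0.0509) and of 1.08 in females (SE 0.24, adjusted p = 0.0525). Morc1 differed by 0.05 in males and -0.92 in females (adjusted p = 0.963 and 0.0766).

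**Figure D4:**
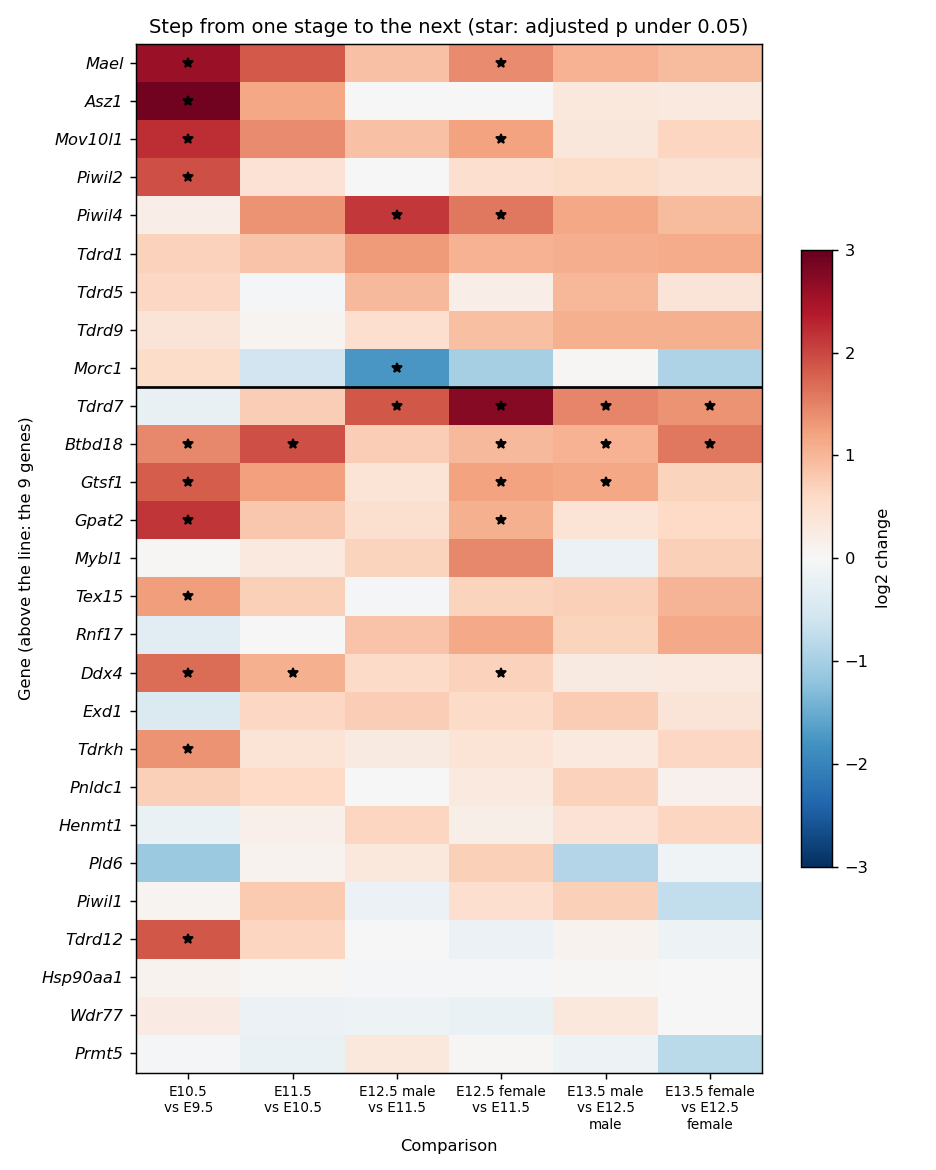
Log2 change of each gene at each step between neighbouring stages, in colour, with the 9 genes above the line, 18 other piRNA pathway genes below it and a star on each change that passed the test. Above the line, stars stand in the steps E10.5 against E9.5 (Asz1, Mael, Mov10l1 and Piwil2) and E12.5 against E11.5; below it, Tdrd7 has stars at E12.5 and E13.5 in both sexes.

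The comparison of the sexes asked whether the pathway differed between male and female germ cells once gonads had formed. At E12.5, 0 members passed with limma, against 2.39% of all genes called and 2328 at an unadjusted p under 0.05. Tdrd5 was at 10.77 in males and 9.99 in females, a difference of 0.78 (95% interval 0.18 to 1.38, adjusted p = 0.211). Morc1 was at 9.32 in males and 10.07 in females, a difference of -0.75 (interval -1.26 to -0.24, adjusted p = 0.153). The intervals of both leave out 0, though neither difference passed over all genes.

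At E13.5, Tdrd5 passed and was higher in males. Its E13.5 mean was 11.76 ± 0.04 in males and 10.38 ± 0.39 in females (SD, n = 2 arrays each), a difference of 1.39 (SE 0.27, 95% interval 0.79 to 1.98, adjusted p = 0.00866 from limma), or 2.61-fold in signal. This was 1 of the 9 genes, against 10.2% of all genes called (4.19% higher in males). The call was lost without E13.5 male replicate 1 (difference 1.42, adjusted p = 0.0547), without E13.5 male replicate 2 (1.36, adjusted p = 0.0617) and without E13.5 female replicate 2 (1.11, adjusted p = 0.0748). Without the 2 arrays with a Gapdh difference above 3, replicate 2 of each sex, the difference was 1.08 (adjusted p = 0.232) and did not pass.

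For Piwil4 the E13.5 difference, male minus female, was 0.75 (95% interval 0.13 to 1.36, adjusted p = 0.134). For Mov10l1 it was -0.63 (interval -1.14 to -0.12, adjusted p = 0.122). Both intervals leave out 0, though neither difference passed over all genes. The differences of the other genes had intervals that hold 0: Piwil2 -0.42 (-1.06 to 0.23), Tdrd9 -0.40 (-0.93 to 0.13), Tdrd1 0.20 (-1.40 to 1.79), Mael -0.45 (-1.08 to 0.18), Asz1 0.07 (-0.49 to 0.62) and Morc1 0.21 (-0.30 to 0.72). For the change of the sex difference between E12.5 and E13.5, 0 members passed with limma, against 0.011% of all genes (1350 at an unadjusted p under 0.05). The largest such change was that of Morc1, 0.96 (adjusted p = 0.461).

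**Figure D5:**
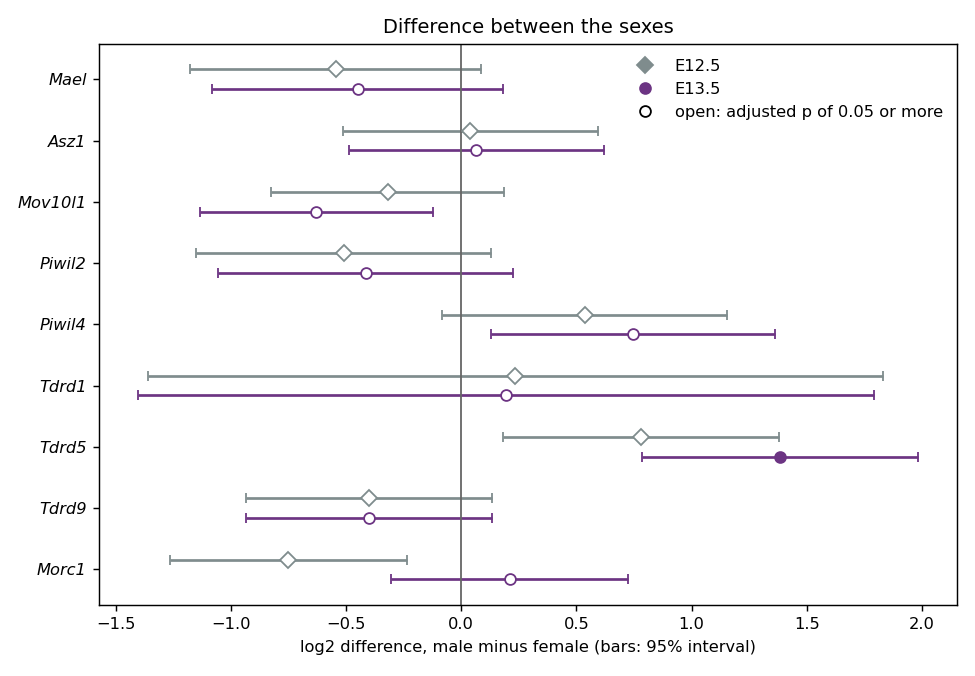
Log2 difference of each gene, male minus female, at E12.5 and at E13.5, with 95% intervals of the limma fit. Tdrd5 at E13.5, at 1.39 with an interval from 0.79 to 1.98, is the difference that passed the test.

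Genes listed as markers of several other cell types differed between the sexes at E13.5. Among 10 markers of male supporting cells, Cst9 and Ptgds were higher in E13.5 males, by 6.44 and 3.41. The summed signal of the list lay between 1018 and 1281 in males of that stage and between 574 and 630 in the females. Sox9, the defining gene of these cells, had E13.5 means of 2.60 in males and 3.13 in females, and Amh 6.01 in males and 5.94 in females. Among 10 markers of female supporting cells, 4 were lower in E13.5 males, Irx3, Msx1, Bmp2 and Wnt4, and 0 were higher, although 5 of the 10 differences were positive, with a median of 0.12. Rspo1 had means of 8.94 in males and 7.81 in females and Gng13 8.67 in males and 6.52 in females, and neither passed. The sum of this list lay between 1122 and 1754 in males and between 1911 and 1957 in females. Of 10 measured gut and mesonephros markers, Cdx2 (-6.13), Foxa1 (-1.79) and Cdx1 (-1.55) were lower in E13.5 males and Lhx1 (2.95) was higher. The sum of this list lay between 5160 and 6244 in males and between 3407 and 4078 in females. Most of that sum was the signal of Epcam, with E13.5 means of 12.02 in males and 11.5 in females. Among 10 endothelial markers Cldn5 was higher in males, by 1.94, and among 14 gonadal somatic markers Nr2f1 was lower, by -2.98 as male minus female. Which cells the signals of these markers came from was not tested, and some may come from the germ cells themselves. The part of other cells in the Tdrd5 difference was not tested.

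Markers of other cells also differed between E13.5 and E10.5. Of 10 endothelial markers 3 fell in males and 5 in females. Their sum lay between 791 and 1149 in E13.5 males, between 669 and 1413 in E13.5 females and between 1640 and 2433 at E10.5. Pecam1 had the highest mean of this list at E10.5 (10.18), with 7.96 in E13.5 males and 9.18 in the females. Of 9 blood markers 2 fell in each sex, with sums of 168 to 574 in E13.5 males, 176 to 439 in E13.5 females and 2705 to 3453 at E10.5. Hba-a1, a haemoglobin gene, was at 0.0 in the means of both E13.5 groups and of E10.5. Of 14 gonadal somatic markers 3 fell in each sex, with sums of 455 to 516 in E13.5 males, 476 to 502 in E13.5 females and 1029 to 1340 at E10.5. Other lists rose in part. Of 10 male supporting markers, Cst9 (7.41) and Ptgds (3.85) rose in males and 0 passed in females, with sums of 1018 to 1281 in E13.5 males, 574 to 630 in the females and 615 to 875 at E10.5. Of 10 female supporting markers, 2 rose and 1 fell in males and 4 rose in females, with median changes of 0.13 in males and 1.21 in females; their sums were 1122 to 1754 in E13.5 males, 1911 to 1957 in the females and 436 to 704 at E10.5. Of 10 gut and mesonephros markers, 2 rose and 1 fell in males and 3 rose and 1 fell in females. Their sums were 5160 to 6244 in E13.5 males, 3407 to 4078 in the females and 3003 to 3073 at E10.5. Most of these sums was the signal of Epcam, with means of 12.02 in E13.5 males, 11.5 in the females and 11.26 at E10.5. Which cells the signals of these markers, Epcam and Pecam1 among them, came from was not tested. Dazl and Ddx4 rose among the germ cell markers in both sexes, whereas 2 others fell in males and 4 in females. The part of other cells in the changes of the 9 genes was not tested.

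The rest of the pathway was read from a list of 21 other piRNA pathway genes, of which 18 were measured. At E13.5 against E10.5, 11 of the 18 rose and 0 fell in males, with a median change of 1.31, against 7.52% of all genes higher. In females 11 rose and 1 fell, with a median of 1.49, against 11.5% higher. The largest rises in males were those of Tdrd7, a Tudor scaffold (4.07, SE 0.28, adjusted p = 1.52e-05), Btbd18, a nuclear regulator of piRNA precursor transcription (3.73), Gtsf1, a cofactor of Piwi proteins (2.81), and Exd1, a partner of TDRD12 (2.11). In females they were those of Tdrd7 (4.84, SE 0.28, adjusted p = 7.63e-06), Btbd18 (4.51), Gtsf1 (3.11) and Gpat2, a mitochondrial partner of MILI (2.47). The gene that fell in females was Prmt5, the enzyme that methylates arginines of Piwi proteins (-0.97, SE 0.25, adjusted p = 0.0239).

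In the single steps, 7 of these 18 genes rose at E10.5 against E9.5 (0.715% of all genes), led by Gpat2 (2.16), Tdrd12 (1.87), Gtsf1 (1.82) and Ddx4 (1.67). At E11.5 against E10.5, Btbd18 rose by 1.95 (adjusted p = 0.00878) and Ddx4, the germ cell RNA helicase VASA, by 1.07 (adjusted p = 0.0213), where 0.0769% of all genes passed. At E12.5 against E11.5, Tdrd7 rose in males by 1.87 (adjusted p = 0.0147; 1.01% of all genes passed), and 5 genes rose in females (1.41% of all genes), with Tdrd7 first at 2.74 (adjusted p = 0.00163). At E13.5 against E12.5, Tdrd7, Gtsf1 and Btbd18 rose in males (1.46, 1.16 and 1.05), where 2.09% of all genes passed, and Btbd18 and Tdrd7 in females (1.58 and 1.35), where 1.87% did. Between the sexes at E13.5, Prmt5 was higher in males (0.91), and Tex15, which acts with MIWI2 in transposon methylation, Gpat2 and Btbd18 were lower (-1.0, -0.80 and -0.78), where 10.2% of all genes passed.

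A list of 21 other transposon silencing genes was measured in full. Its median change at E13.5 against E10.5 was 0.31 in males and 0.41 in females. In males 3 of the 21 rose and 0 fell, and in females 4 rose and 1 fell, against 12.7% and 17.9% of all genes called in these comparisons. Tex19.2 and Tex19.1, mammalian germ cell genes that restrain retrotransposons, rose in males by 3.12 and 1.28, as did Ehmt2, a histone H3 lysine methyltransferase (0.91). In females Tex19.2 (2.24), Tex19.1 (1.23), Hells, a chromatin remodeller of DNA methylation (1.21), and Ehmt2 (0.54) rose, and Samhd1, a nucleotide hydrolase that restrains retroelements, fell by 1.53 (adjusted p = 0.0027). Between the sexes at E13.5, Samhd1 (1.02, adjusted p = 0.0364) and Tex19.2 (0.89, adjusted p = 0.0144) were higher in males, 2 of 21 against 4.19% of all genes.

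Over the 12 arrays from E10.5 on, 28 of the 36 pairs of members correlated positively, and the others were the pairs of Morc1, which correlated negatively with each of the rest. The median r was 0.78. The 12 points share the same stages and arrays, and these correlations are descriptions. Genes most like each member were sought among those above the level of the median gene with group means spanning at least 1. The 3 named for each member have the highest r of 3243 or 3244 candidates, over 12 arrays in 6 groups. What these likenesses reflect was not tested. Mael was most like Ccdc172 (r = 0.989), Scml2 (0.987) and Sohlh2 (0.986), and Mov10l1 most like Ddx4 (0.981), Vav2 (0.978) and 8030474K03Rik (0.975). Tdrd9 was most like Sycp1 (0.990), a synaptonemal complex gene, Cfap97 (0.987) and Zfyve9 (0.983). Piwil4 was most like Mnd1 (0.982), a meiotic recombination gene, Abcf3 (0.971) and Rab3b (0.971).

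Tdrd1 was most like Kdm5b (0.975), Psma8 (0.949) and Hspa4l (0.945), and Tdrd5 most like Tgif1 (0.979), Phactr3 (0.972) and Snap47 (0.969). Piwil2 was most like 0610010F05Rik (0.970), Hells (0.968) and Arfgap3 (0.967). The likeness was lowest for Asz1, whose nearest genes were Dclk2 (0.925), Dazl (0.911) and Psma8 (0.906). Morc1 was most like 2610318N02Rik (0.968), Stat4 (0.968) and Dcp2 (0.967).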

How the data were processed

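The authors deposited log2 signals per probe set and normalized the E9.5 arrays again with the rest, per the series' design text. Which software, background correction and summarization they used is not given in the sources used here. Of 45101 probe sets, 34958 had a single symbol in the platform annotation and the others were left out. A gene was read at the probe set whose mean was highest in the fitted arrays. Models with 1 mean per group, moderated variances and an intensity trend were fitted in R 4.3.3 with limma 3.58.1 and checked on simulated data. The fit of 12 arrays (6 residual degrees of freedom) gave 10 comparisons, and that of 14 arrays (7 degrees) gave E10.5 against E9.5. P-values are two-sided and adjusted by the Benjamini-Hochberg method over 18194 genes, with a threshold of 0.05. The number of arrays limits the precision.

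The members and gene lists were chosen with earlier results of these data known. Every member is named with each array's value; of other pathway genes, up to 4 that passed per direction and comparison, by size; and the 3 most correlated genes per member. Tdrd6, Fkbp6 and Spocd1 had no measured gene. Alternatives tried were quantile normalization, median centring, genes below the median gene's mean left out, the mean of all probe sets, each probe set tested, no intensity trend, the compared arrays alone, a Gapdh covariate, a replicate block and each array left out.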

Additional observations from a re-analysis of the deposited data

Results flagged for a closer look

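The difference between males and females at E13.5 passed the test for Tdrd5 among the 9 genes: 1.385 on the log2 scale, male minus female, with 11.73 and 11.79 in E13.5 males and 10.65 and 10.10 in E13.5 females. It came up because the 2 sexes differed under the same test (adjusted p = 0.00866), whereas at E12.5 the difference of Tdrd5 was 0.78 (adjusted p = 0.211). From E12.5 to E13.5 the sex difference of Tdrd5 changed by 0.61, which did not pass (SE 0.38, adjusted p = 0.843). Tdrd5 was 1 of the 9 genes, against 10.2% of all genes called between the sexes at E13.5. Over the alternatives run its E13.5 difference lay between 1.08 and 1.66. The arrays without which the call was lost are given with the comparison of the sexes.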

How the results depend on the processing

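Of the 26 member calls, 0 changed direction under any alternative run, and 16 passed with each compared array left out in turn. The labels do not say that replicate numbers pair the arrays. Deviations from group means of same-numbered arrays correlated between -0.493 and 0.692 over 15 pairs of groups, 7 above 0.1, with 0.671 between E13.5 males and females and 0.417 between E12.5 males and females; with the replicate block all 26 calls passed, among them 8 in each sex at E13.5 against E10.5 and Tdrd5 between the sexes at E13.5 (adjusted p = 0.011). With the compared arrays alone, which leaves 2 residual degrees of freedom, 0 members passed at E10.5 against E9.5, 0 in either sex at E12.5 against E11.5, 1 in males at E13.5 against E12.5, and 5 in each sex at E13.5 against E10.5. At E11.5 against E10.5, quantile normalization gave 1 and median centring 2, and leaving out arrays 0 to 2. In E12.5 females against E11.5, 1 passed with no intensity trend, 1 with the Gapdh covariate and 0 to 1 with an array left out, and in males 1 with the genes of lower mean left out and 0 to 2 with an array left out. The mean of all probe sets gave 1 in males at E13.5 against E12.5. With genes below the mean level of the median gene left out (6.36 over 12 arrays), which removes Piwil4, Tdrd9 and Tdrd1, 5 passed in E13.5 females against E10.5. Between the sexes at E13.5, leaving out arrays gave 0 to 1. Without the 2 arrays with a Gapdh difference above 3, chosen after seeing the data, 0 passed in E12.5 males or females against E11.5 and 0 between the sexes at E13.5. Where fewer arrays or genes were fitted, the alternative itself has less to estimate from; other causes were not tested. Leaving out an array leaves a group with 1, which is assumed to vary like the others.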
